A study of Homo sapiens with 12 samples.

Results

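The HOX genes encode homeodomain transcription factors that lie in 4 clusters, HOXA, HOXB, HOXC and HOXD. They were taken as every feature of the deposited count table whose symbol is HOXA, HOXB, HOXC or HOXD followed only by a number. This gave 39 genes of 26535 features, of which 11 belong to HOXA, 10 to HOXB, 9 to HOXC and 9 to HOXD. The number in a symbol is the position in the cluster, from 1 at the end used for anterior body regions to 13 at the end used for posterior ones, and genes with the same number in different clusters are paralogs. HOX proteins give cells along the body axis their regional identity, mostly together with TALE homeodomain cofactors of the PBX, MEIS and PKNOX families. Adult cells keep much of the HOX pattern of the region they came from, and the lung normally uses anterior and middle members such as HOXA5. Polycomb complexes hold HOX genes silent, MLL complexes keep them active, and retinoic acid can induce the anterior ones.

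The study overexpressed VGF, a secreted neuropeptide precursor, in A549 and NCI-H1299, which are established human non-small cell lung cancer lines. Each line carried either an empty lentiviral vector (genotype given as WT) or a VGF lentivirus (genotype VGF-OE), with 3 libraries in each of the 4 groups, which the design text describes as biologically independent. All 12 libraries were made from cells that carried a lentiviral vector, and no untransduced cells are among them. A549 grew in DMEM/F12 and NCI-H1299, called H1299 below, in RPMI-1640, so line and medium cannot be told apart in a comparison of the lines. A free-text note names the empty vector for every library, and VGF RNA was used to check the group labels.

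Poly(A) RNA libraries held between 31378171 and 41919484 counts. VGF was at 2.02 to 2.74 CPM (counts scaled to the library size) in empty-vector A549 and at 1201 to 1361 CPM with VGF, and in H1299 it went from between 77.25 and 90.5 CPM to between 886 and 1114 CPM, as the labels say. The 12 genes listed as lung epithelial markers summed to between 197652 and 247097 counts in A549 and to between 41738 and 48411 in H1299. Most of these counts came from the keratins KRT8 and KRT18, with 120606 and 72312 of 197652 in the first empty-vector A549 library. The lung genes SFTPA1, SFTPB, SFTPC and SCGB1A1 had at most 14 counts in any library, and the lung factor NKX2-1 at most 16. E-cadherin (CDH1) was at 0 in all 6 H1299 libraries. The second VGF library of A549 stood apart: 20 endothelial markers summed to 22694 counts there, against 2570 to 3301 in the other A549 libraries and 1417 to 1833 in H1299. PECAM1 had 3305 counts, CDH5 3387 and VWF 1559 in that library, while CD34 had 4 and PLVAP 14. In the other A549 libraries most of the marker sum came from ESAM (928 to 1424 counts) and EGFL7 (1383 to 1861). The second VGF library was also the highest A549 library in CPM for 11 of the 32 tested HOX genes. Over all tested features that share was 21.0%, so the values this library moves are also given without it. Without it the HOX sum of A549 with VGF was 79.8 FPKM on average in place of 80.0, and the HOXA sum 13.7 in place of 14.7 (13.8, 16.75 and 13.55 in the 3 libraries). In bulk RNA a smaller share of expressing cells and less RNA per cell cannot be told apart.

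The lines differed in how much HOX RNA they held, while the clusters had the same order by share in both. Levels between genes are given as deposited FPKM, which is scaled for gene length and library size. The 39 genes summed to 79.8 ± 3.40 FPKM (SD, n = 3) in empty-vector A549 and to 263.5 ± 1.04 in empty-vector H1299, and with VGF to 80.0 ± 3.55 and 254.9 ± 2.16. HOXB held 54.6% ± 0.708 of this sum in empty-vector A549 and 59.5% ± 0.670 in H1299. The shares of HOXC were 26.2% ± 0.291 and 23.9% ± 0.302, and those of HOXA 15.8% ± 0.063 and 14.2% ± 0.561. HOXD held 3.39% ± 0.943 and 2.45% ± 0.0915. The HOXB sum was 45.1, 42.0 and 43.5 FPKM in empty-vector A549 and 154.4, 157.0 and 158.8 in empty-vector H1299. The HOXC sum was 20.9 ± 0.670 FPKM in A549 and 62.95 ± 0.547 in H1299, the HOXA sum 12.6 ± 0.579 and 37.4 ± 1.46, and the HOXD sum 2.72 ± 0.828 and 6.46 ± 0.229. For each cluster every H1299 library was above every A549 library, and HOXD was the lowest cluster in all 4 groups. As a log2 ratio of H1299 to A549 the HOXA difference was 1.57 in FPKM but 0.97 in sums of CPM, which are not scaled for gene length and use TMM-scaled library totals.

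At least 1 FPKM was reached by 17 HOX genes in empty-vector A549 and by 24 in empty-vector H1299, and with VGF by 17 and 25. In empty-vector A549 the highest were HOXB7 (12.04 ± 1.30 FPKM), HOXB6 (10.1 ± 0.938) and HOXC8 (8.80 ± 0.486). The libraries of HOXB6 and HOXC8 overlapped (9.05 to 10.7 and 8.32 to 9.29 FPKM), while every HOXB7 value lay above every HOXB6 value. In empty-vector H1299 HOXB2 was highest at 50.5 ± 1.60 FPKM, above 91.55% of the features with an Ensembl ID that were detected there. It was followed by HOXB7 (39.0 ± 3.39), HOXB3 (21.1 ± 1.02) and HOXC6 (19.1 ± 0.592). By position, summed over clusters, A549 was highest at position 8 (15.2 ± 1.04 FPKM) and position 6 (14.02 ± 0.942), whose ranges of mean ± SD overlap. H1299 was highest at position 7 (50.8 ± 3.50) and position 2 (50.6 ± 1.76), where A549 had 12.04 ± 1.30 and 1.57 ± 0.177. Both lines were lowest at position 12, with 0 FPKM in empty-vector A549 and 0.0347 ± 0.0265 in empty-vector H1299. Position 13, the posterior end, had 4.43 ± 0.249 FPKM in A549 and 4.91 ± 0.0689 in H1299, made of different genes: HOXC13 and HOXA13 gave most of it in A549, and HOXB13 gave the largest share in H1299.

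**Figure D1:**
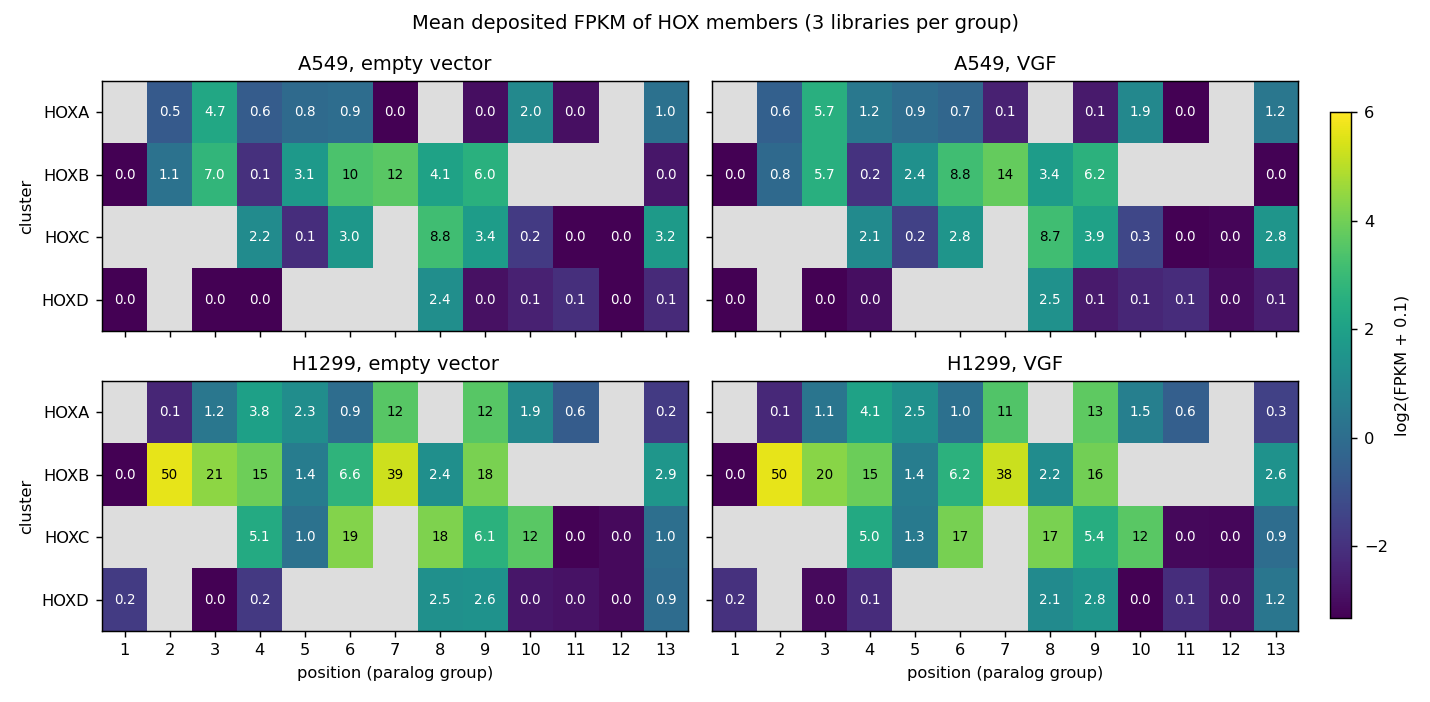
Mean deposited FPKM of HOX genes (rows, the 4 clusters; columns, positions 1 to 13; grey, no value shown) in the 4 groups of 3 libraries, coloured on a log2(FPKM + 0.1) scale with the FPKM printed in each cell. HOXB2, HOXB7 and HOXB3 are the brightest cells in both H1299 panels and HOXB7 and HOXB6 in A549 with empty vector, and the VGF panel of each line closely resembles its empty-vector panel.

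Between the lines with empty vector, 27 of the 32 HOX genes with enough counts to test were called different at an adjusted p under 0.05 by edgeR's quasi-likelihood test, 20 higher and 7 lower in H1299. The lines differ widely, and 77.2% of all 18228 tested features were called in this comparison, with 38.5% higher and 38.6% lower, so the share of HOX genes called is near that of all features. The median log2 fold change of the tested HOX genes was 1.29 (H1299 minus A549), also with HOXA7 and HOXD1 set at the bounds given below, against 0.01 for all features. An absolute log2 fold change over 2 was fitted for 17 of them (53.1%), compared with 29.03% of all features. The same comparison in the VGF libraries, which share no library with the first, called 25 of 32 (19 higher, 6 lower), against 77.3% of all features (38.2% higher, 39.1% lower). All 25 were also called with empty vector and in the same direction, and without the A549 library with endothelial transcripts all 25 were still called. Both comparisons concern the same lines and come from the same fit, with a shared estimate of the spread, so they are not independent of each other. The libraries of the lines did not overlap for 28 of the 32 tested genes with empty vector, compared with 81.0% of all features, and for 28 with VGF, compared with 79.5%.

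**Figure D2:**
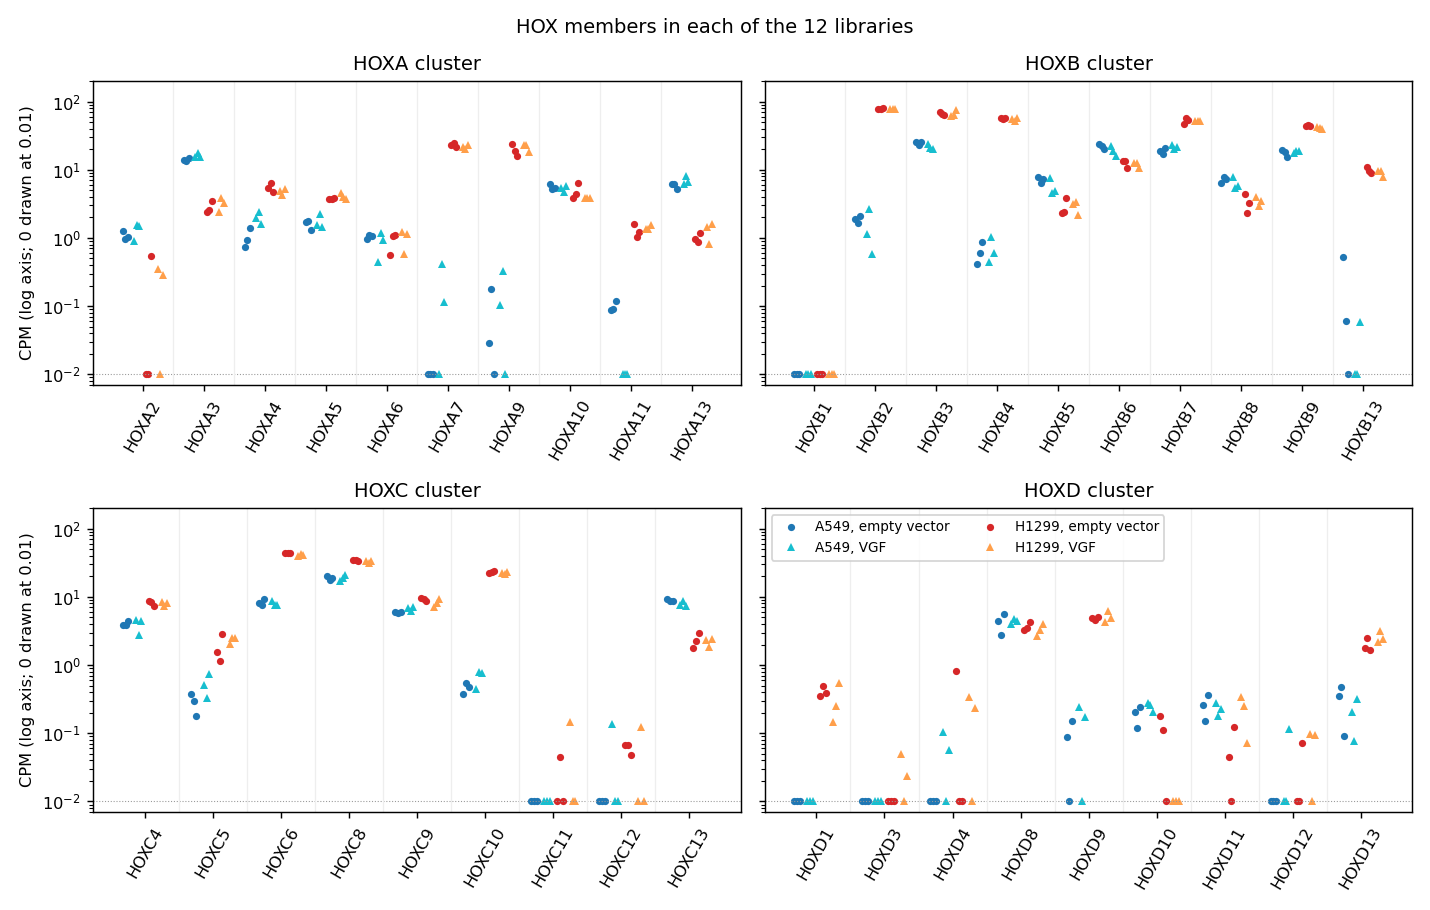
CPM of HOX genes in each of the 12 libraries on a log axis, with a count of 0 drawn at 0.01; circles are empty-vector and triangles VGF libraries, blue tones A549 and red tones H1299. HOXA7, HOXA9, HOXB2, HOXB4 and HOXC10 lie far higher in every H1299 library, HOXA3, HOXA13 and HOXC13 lie higher in every A549 library, and triangles lie beside the circles of their line for most genes.

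Within HOXA, neighbouring genes differed between the lines in opposite directions. HOXA4, HOXA5, HOXA7, HOXA9 and HOXA11 were higher in H1299, HOXA3 and HOXA13 were lower, and HOXA2, HOXA6 and HOXA10 were not called. The upstream sequences of HOXA7, HOXA9, HOXA11 and HOXA13, which lie between positions 7 and 13 and hold both directions, are shown here. HOXA10, which lies among them and was not called, and HOXA3, the other lower gene, also had windows, which are not shown. They come from RefSeq for GRCh38.p14, minus strand, are read 5′ to 3′ towards the gene, leave out exons of coding genes, and have every CG pair in capitals. The HOXA7 stretch is chr7:27156755-27156925, the HOXA9 stretch chr7:27165538-27165787, the HOXA11 stretch chr7:27185233-27185482 and the HOXA13 stretch chr7:27200107-27200341.
HOXA7: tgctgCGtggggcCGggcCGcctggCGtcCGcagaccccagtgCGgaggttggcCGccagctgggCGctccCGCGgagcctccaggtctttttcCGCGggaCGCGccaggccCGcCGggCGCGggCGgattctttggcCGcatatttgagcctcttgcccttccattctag
HOXA9: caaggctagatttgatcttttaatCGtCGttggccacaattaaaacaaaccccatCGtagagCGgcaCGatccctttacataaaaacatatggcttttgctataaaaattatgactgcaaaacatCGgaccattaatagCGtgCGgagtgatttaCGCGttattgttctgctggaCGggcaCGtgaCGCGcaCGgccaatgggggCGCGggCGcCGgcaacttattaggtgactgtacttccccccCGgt
HOXA11: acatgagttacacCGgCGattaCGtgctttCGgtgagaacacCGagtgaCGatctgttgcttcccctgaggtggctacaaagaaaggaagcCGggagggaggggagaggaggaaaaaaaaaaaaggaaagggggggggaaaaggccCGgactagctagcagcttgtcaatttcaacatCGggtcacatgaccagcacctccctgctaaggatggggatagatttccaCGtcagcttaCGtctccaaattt
HOXA13: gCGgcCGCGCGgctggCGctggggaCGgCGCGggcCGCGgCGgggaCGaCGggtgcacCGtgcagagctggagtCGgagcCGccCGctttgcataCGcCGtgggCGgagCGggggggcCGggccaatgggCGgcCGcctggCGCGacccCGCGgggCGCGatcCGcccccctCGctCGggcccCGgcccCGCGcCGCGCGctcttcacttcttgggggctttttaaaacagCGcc
HOXA7 and HOXA9 have starts further upstream in GENCODE 29, where they reach up to positions 27157936 and 27175180, so these 2 stretches lie upstream of the RefSeq start but inside the GENCODE genes, outside their exons. The full 250 bases before the RefSeq start held 28 CG pairs at HOXA7, 20 at HOXA9, 11 at HOXA11 and 40 at HOXA13, where the median of 35116 windows of all genes is 11. Fewer CG pairs than these were found in 84.1%, 67.6%, 49.7% and 97.8% of all windows. HOXA13, the gene that was lower in H1299, is the richest of the 4, and the 3 that were higher differ among themselves. HOXA3 and HOXA10 are not part of this comparison, and a link of CG pairs to the direction was not tested. The letters TATAAA, searched on both strands, occur in the HOXA9 window on the gene's strand and in none of the other 3, and 10.7% of all windows hold them. The PBX-HOX motif TGATNNAT, searched on both strands, is in none of these 4 windows and in 6.47% of all windows. Among all 39 genes 20 had a window in the RefSeq table, 3 of them (HOXA2, HOXB1 and HOXD11) with TGATNNAT and 4 (HOXA3, HOXA9, HOXA10 and HOXD13) with TATAAA, and no single window held both.

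HOXA7 had 0 counts in all 3 empty-vector A549 libraries and 1045, 1079 and 891 in the empty-vector H1299 libraries. The groups are fully separate, and H1299 was at least 781-fold higher against a floor of 3 counts over the A549 group (adjusted p = 3.1e-08). HOXA9, a gene known from leukaemias in which MLL is rearranged, had 1, 6 and 0 counts in empty-vector A549 and 1061, 838 and 661 in H1299, a log2 fold change of 8.08 ± 0.59 (SE). With VGF it had 3, 13 and 0 counts in A549 and 939, 930 and 785 in H1299. HOXA9 therefore lay far higher in every H1299 library than in any A549 library. HOXA11, which acts in the forearm and the uterus, had 3, 3 and 4 counts in empty-vector A549 and 71, 45 and 50 in H1299, a log2 fold change of 3.64 ± 0.44. With VGF it was at 0 in all 3 A549 libraries and at 54, 53 and 66 in H1299, at least 48.4-fold higher against the floor. HOXA11 was thus a low gene in H1299 too, at 0.558 ± 0.130 FPKM with empty vector.

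HOXA5, which is needed for normal lung development, was at 1.69, 1.76 and 1.32 CPM in empty-vector A549 and at 3.68, 3.67 and 3.87 in H1299, a 2.35-fold difference (log2 1.23 ± 0.23) with no overlap. HOXA4 was at 0.728, 0.926 and 1.41 CPM in A549 and at 5.37, 6.31 and 4.64 in H1299, 5.31-fold higher (log2 2.41 ± 0.27). In the opposite direction, HOXA3, a factor of thymus and parathyroid development, was at 13.7, 13.3 and 15.1 CPM in empty-vector A549 and at 2.38, 2.59 and 3.43 in H1299. The A549 level of HOXA3 was 5.02-fold that of H1299 (log2 fold change −2.33 ± 0.19). HOXA13, which patterns the limb tip and the urogenital tract, was at 6.11, 6.21 and 5.29 CPM in A549 and at 0.959, 0.862 and 1.17 in H1299, with a log2 fold change of −2.56 ± 0.26. Both HOXA3 and HOXA13 were clear of overlap, and with VGF their log2 fold changes were −2.34 ± 0.19 and −2.45 ± 0.26.

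The uncalled HOXA genes were of 2 kinds. HOXA6 and HOXA10, a factor of the uterus, had log2 fold changes between the empty-vector lines of −0.19 ± 0.44 and −0.20 ± 0.20, and their libraries overlapped. HOXA10 was at 6.17, 5.14 and 5.41 CPM in A549 and at 3.79, 4.38 and 6.35 in H1299, right beside HOXA9 in the cluster. HOXA2 did not overlap, with 44, 32 and 34 counts in empty-vector A549 and 0, 0 and 22 in H1299, and missed the threshold at adjusted p = 0.0585. The spread of HOXA2 within H1299 was wide also with VGF, where it had 14, 0 and 12 counts. Without the third empty-vector H1299 library its log2 fold change was −8.36 instead of −2.61, with adjusted p = 0.00073. HOXA2 was also called lower in empty-vector H1299 by limma voom (adjusted p = 0.00359), on FPKM with pseudocount 1 (0.00254), with the replicate block (0.0445) and with a filter of at least 1 CPM in 3 libraries (0.0387). In the VGF libraries its log2 fold change was −2.62 ± 1.16 (adjusted p = 0.0547). HOXA10 between the VGF libraries was at −0.46 (adjusted p = 0.0567) and was called by DESeq2 (0.0448).

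Of the 9 tested HOXB genes 6 were higher and 3 lower in H1299, in both pairs of groups. The higher ones included the anterior genes HOXB2, HOXB3 and HOXB4 and the posterior HOXB13, and the lower ones were HOXB5, HOXB6 and HOXB8, with the higher gene HOXB7 between the last 2 of them. HOXB2, a hindbrain factor, was at 1.92, 1.64 and 2.08 CPM in empty-vector A549 and at 76.9, 76.6 and 80.2 in H1299. That is a 41.4-fold difference (log2 5.37 ± 0.26), in fully separate groups. HOXB4, which is known for expanding blood stem cells, was at 0.408, 0.597 and 0.872 CPM in A549 and at 58.0, 56.0 and 57.0 in H1299, 90.9-fold higher (log2 6.51 ± 0.19). HOXB3, the gene between them, differed by only 2.69-fold, at 25.6, 22.7 and 25.6 CPM in A549 and 69.5, 66.2 and 62.9 in H1299. The exons of HOXB3 share a few percent of their bases with those of HOXB4 (2.13%) and HOXB6 (5.81%) on the same strand. These bases make up 4.23% of HOXB4 and 16.6% of HOXB6, so reads may be split between these genes.

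HOXB7, the highest HOX gene of A549 per length, was at 18.5, 16.9 and 20.8 CPM in empty-vector A549 and at 47.5, 56.9 and 54.1 in H1299, 2.82-fold higher. HOXB9 was at 19.5, 18.0 and 15.3 CPM in A549 and at 44.0, 45.6 and 44.35 in H1299, 2.54-fold higher. HOXB13, a gene of the prostate and hindgut, had 18, 2 and 0 counts in A549 and 487, 420 and 369 in H1299. Its A549 reads came mostly from 1 library, and the log2 fold change was 5.61 ± 0.68 with all libraries and between 5.04 and 8.20 with each library left out in turn. HOXB5 was at 7.74, 6.45 and 7.28 CPM in A549 and at 2.34, 2.43 and 3.82 in H1299 (log2 fold change −1.32 ± 0.27). HOXB6 was at 23.5, 22.6 and 20.1 CPM in A549 and at 13.3, 13.6 and 10.5 in H1299 (−0.82 ± 0.14), and HOXB8 at 6.49, 7.82 and 7.40 and at 4.41, 2.36 and 3.31 (−1.11 ± 0.24). None of these 3 overlapped between the lines, although their differences were smaller than those of HOXB2 and HOXB4. With VGF they were −0.97 ± 0.27, −0.67 ± 0.14 and −0.86 ± 0.24.

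Of the 7 tested HOXC genes 6 were higher and 1 lower in H1299 with empty vector, and with VGF 5 were higher and 1 lower. HOXC10, which acts in hindlimb motor neurons, was at 0.378, 0.537 and 0.481 CPM in empty-vector A549 and at 22.4, 23.05 and 23.7 in H1299, 49.2-fold higher (log2 5.62 ± 0.19). HOXC6 was at 8.21, 7.61 and 9.26 CPM in A549 and at 44.5, 44.35 and 44.4 in H1299, 5.31-fold higher (log2 2.41 ± 0.09). HOXC8 was at 19.97, 17.9 and 18.8 CPM in A549 and at 34.7, 34.6 and 34.0 in H1299, 1.82-fold higher. The 3 genes were each clear of overlap, and the difference was largest for HOXC10, which A549 barely held. The exons that HOXC4 and HOXC6 share on the same strand cover 17.8% of HOXC4 and 13.7% of HOXC6, so their reads may be split between them. HOXC4 differed by 1.99-fold and HOXC9 by 1.55-fold (log2 0.63 ± 0.14) with empty vector. HOXC9 was no longer called with VGF (log2 0.28 ± 0.14, adjusted p = 0.0837), and the difference between those 2 estimates was itself not called (−0.35 ± 0.20, adjusted p = 0.532). The VGF-library difference of HOXC9 was called with upper-quartile scaling (log2 0.40, adjusted p = 0.0177), on FPKM with pseudocount 1 (0.39, adjusted p = 0.000859 by limma) and without the first H1299 VGF library (0.37, adjusted p = 0.0383). HOXC13, which controls hair keratin genes, was the lower one, at 9.20, 8.78 and 8.81 CPM in A549 and at 1.78, 2.27 and 2.92 in H1299 (log2 fold change −1.94 ± 0.20).

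HOXC5 had 13, 10 and 6 counts in empty-vector A549 and 69, 51 and 119 in H1299, 6.44-fold higher (log2 2.69 ± 0.45). Its H1299 value in the third library is the highest, and a separate feature of the table that overlaps 33.85% of its exonic bases on the same strand had 51, 82 and 0 counts in those libraries and 0 in the other 9. Reads of these 2 features may therefore have been divided differently between libraries.

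HOXD was the least expressed cluster, and of its 5 tested genes 3 were higher in H1299. HOXD9 had 3, 0 and 5 counts in empty-vector A549 and 217, 204 and 208 in H1299, a log2 fold change of 5.88 ± 0.71. HOXD13, which patterns the digits, had 12, 16 and 3 counts in A549 and 80, 110 and 69 in H1299, 6.43-fold higher (log2 2.68 ± 0.52). HOXD1 had 0 counts in all 6 A549 libraries, 16, 22 and 16 in empty-vector H1299 and 6, 10 and 23 with VGF, at least 13.99-fold and at least 10.9-fold higher against the floor. These 3 genes had no overlap between the lines. HOXD8, which gave 86.4% of the HOXD sum in empty-vector A549, was at 4.40, 2.75 and 5.65 CPM there and at 3.32, 3.47 and 4.35 in H1299, with a log2 fold change of −0.20 ± 0.26 and overlapping libraries. HOXD11 was called lower in H1299 with empty vector on 9, 5 and 12 counts against 2, 0 and 5 (log2 fold change −2.17 ± 0.93, adjusted p = 0.0483). It was not called with VGF (−0.03 ± 0.84), and the empty-vector call was lost in 11 of 12 fits that left out a library, with adjusted p between 0.0229 and 0.145. The exons of HOXD11 share 21.4% of their bases with those of HOXD10 on the same strand, so their reads may be split between them.

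Antisense RNAs run through these clusters, and whether the counting used strand is not given in the sources used here. Exons of an antisense gene cover 62.5% of the exonic bases of HOXA7, 39.3% of HOXA6 and 31.1% of HOXA11, so counts of these genes could include antisense reads. HOXD1 is covered on the opposite strand over 58.1% of its exonic bases. For HOXA9, HOXB2, HOXB4, HOXC10 and HOXD9 that share was at most 13.9%, and for HOXA4 it was 16.3%. On the same strand, exons of other genes cover 31.0% of HOXA4, 17.1% of HOXB4 and 15.9% of HOXA9, so counts of these genes are also uncertain. The other 7 HOX genes did not reach the count needed for a test and summed to between 0 and 66 counts over the 12 libraries. HOXB1 was at 0 in all 12. HOXD4, whose exonic bases lie to 80.5% under another feature on the same strand, had 37, 0 and 0 counts in empty-vector H1299 and 0 in empty-vector A549, while HOXD10 had 7, 4 and 8 counts in empty-vector A549, 8, 5 and 0 in H1299 and 0 in all 3 H1299 VGF libraries. HOXC11, HOXC12, HOXD3 and HOXD12 had at most 6 counts in any library.

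**Figure D3:**
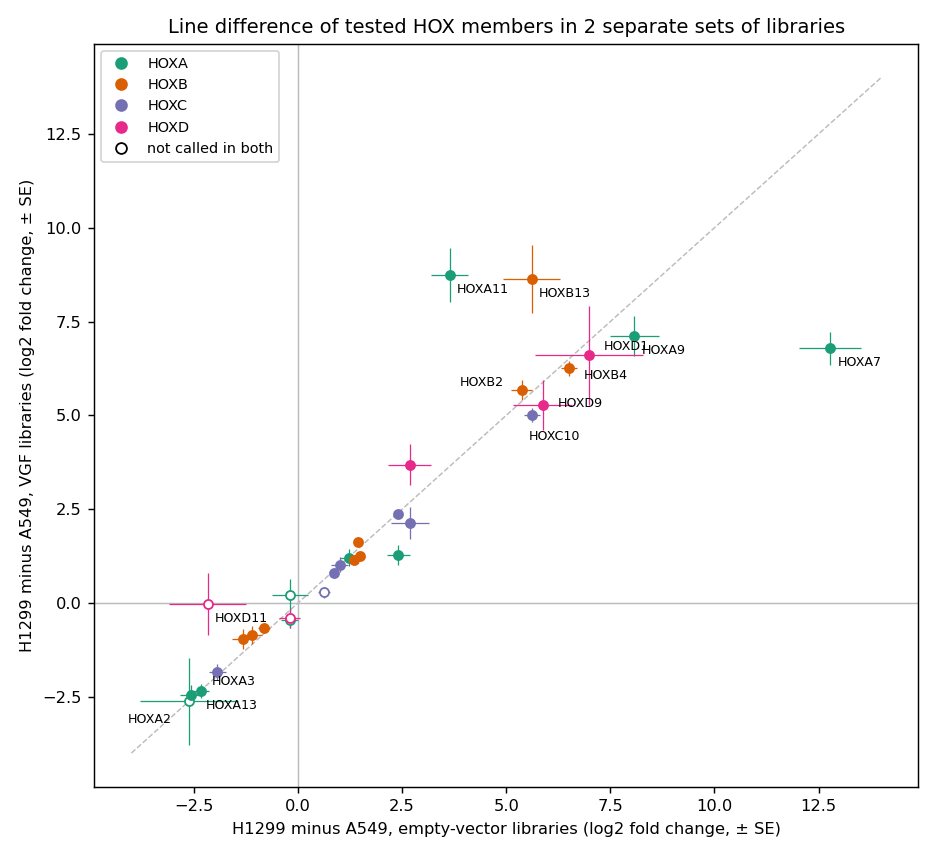
Log2 fold change (H1299 minus A549, ± SE) of tested HOX genes in the empty-vector libraries (x axis) against that in the VGF libraries (y axis), coloured by cluster, with open symbols for genes not called in both; the dashed line marks equal values. The 25 genes called in both lie in the upper right or lower left, and HOXA7, HOXA11 and HOXB13 lie far from the line; each has a group of A549 libraries with 0 to 2 counts in all, where the fitted value depends on the prior count.

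The cofactors and regulators of HOX genes were also measured. Among the TALE cofactors, PBX2, PBX3, MEIS2 and PKNOX1 were called higher and MEIS3 lower in H1299 with empty vector, and each was called in the same direction in the VGF libraries. MEIS3 was at 17.9 ± 0.825 FPKM in empty-vector A549 and at 0.109 ± 0.0875 in H1299. PBX3 was at 6.62 ± 0.412 FPKM in A549 and 56.1 ± 0.998 in H1299 (log2 2.86 ± 0.07), and PBX2 at 11.8 ± 0.421 and 36.9 ± 1.71 (log2 1.45 ± 0.06). MEIS2 and PKNOX1 were also higher in H1299, by 1.24 ± 0.13 and 1.13 ± 0.16 on the log2 scale, while PBX4 and MEIS1 were not called.

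**Figure D4:**
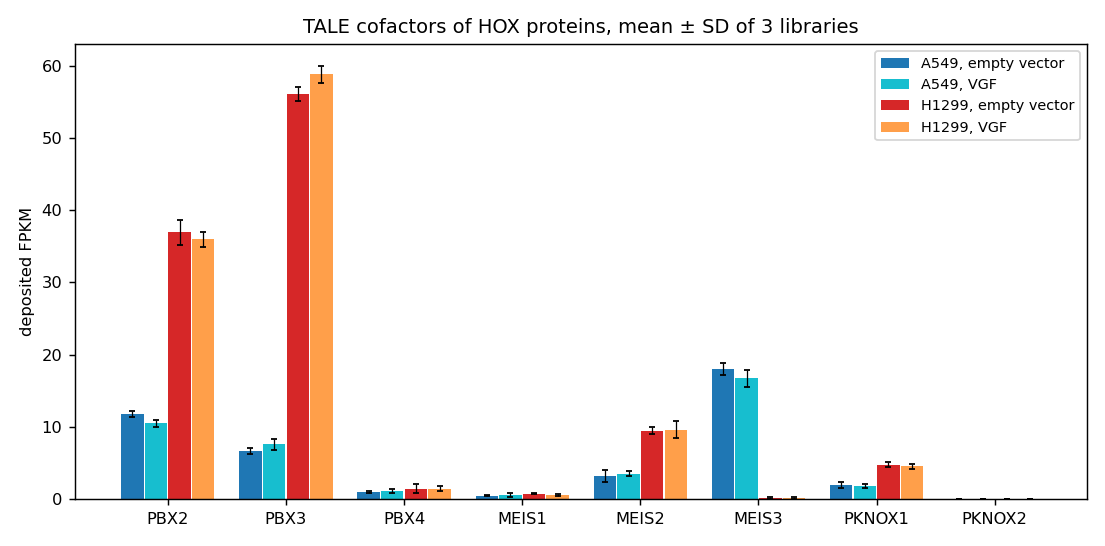
Deposited FPKM of TALE cofactor genes, bars at the mean and error bars at the SD of 3 libraries in each of the 4 groups. MEIS3 (17.9 in empty-vector A549) is taller in A549, PBX3 (56.1 in empty-vector H1299) and PBX2 (36.9) are taller in H1299, and the VGF bars stand beside those of the empty vector.

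Of 24 Polycomb genes 11 were higher and 9 lower in empty-vector H1299, with a median log2 fold change of 0.09. Among those of smallest p were PHC2 (log2 1.74), PHC1 (2.58) and PHF19 (0.94) upward and CBX2 (−3.92) and CBX8 (−1.91) downward. Of 18 MLL and trithorax genes 8 were higher and 9 lower, with a median of −0.05. The smallest p belonged to KMT2A (1.36), the MLL gene itself, among the higher and to AFF1 (−0.72) among the lower, which did not have the largest decrease. Of 12 tested retinoic acid genes 4 were higher and 7 lower, with a median of −3.40. The receptors RARB (−4.50) and RXRA (−5.30) and the enzyme ALDH1A1 (−10.69) were lower in H1299, and the binding protein CRABP2 (3.14) and the enzyme ALDH1A2 (5.52) were higher. All these shares stand against the 77.2% of features called. The ParaHox genes, sister genes of the HOX clusters, had too few counts to test, with 0 to 17 counts over 6 genes in a library. The table holds none of the 25 listed HOX antisense RNAs and cluster microRNAs, which were not analysed here.

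The genes beside the clusters were described as well. The tested neighbours had a median log2 fold change between the empty-vector lines of 0.00 at HOXA (3 higher and 3 lower of 8), 0.06 at HOXB (2 and 3 of 7), 0.16 at HOXC (6 and 1 of 7) and −0.46 at HOXD (1 and 4 of 7). The smallest p in each direction belonged to NFE2L3 (1.34 ± 0.07) and HIBADH (−1.99 ± 0.05) at HOXA, CBX1 (0.86 ± 0.05) and TTLL6 (−5.21 ± 0.34) at HOXB, HNRNPA1 (1.06 ± 0.04) and NFE2 (−4.14 ± 0.86) at HOXC, and HNRNPA3 (0.26 ± 0.05) and ATP5MC3 (−0.73 ± 0.06) at HOXD. None of the neighbours was called in a VGF comparison.

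In A549 the VGF lentivirus left nearly all HOX genes without a called change. Of the 32 tested genes 1 was called, HOXA11, where 0.79% of all features were called (0.384% as lower), and 7 had an unadjusted p under 0.05, where 13.9% of all features did. HOXA11 had 3, 3 and 4 counts with empty vector and 0, 0 and 0 with VGF, at least 3.40-fold lower against the floor (adjusted p = 0.0411). The groups do not overlap but differ by few reads, and the call was lost in each of the 12 fits that left out a library (adjusted p between 0.0563 and 0.121), with limma voom (0.105) and with A549 fitted alone. HOXA7 showed the opposite, with 0, 0 and 0 counts with empty vector and 0, 16 and 4 with VGF (adjusted p = 0.135), and 16 of these 20 reads lay in the library with endothelial transcripts. Without that library its adjusted p was 0.296, and without the first VGF library, which has 0 counts, HOXA7 was called (log2 fold change 6.40, adjusted p = 0.039). DESeq2 called HOXA7 (adjusted p = 0.00235), HOXA4 (0.0298) and HOXA11, where it called 736 of all 18228 features and edgeR 144.

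HOXA4 was at 0.728, 0.926 and 1.41 CPM with empty vector and at 1.95, 2.40 and 1.58 with VGF in A549. The VGF libraries were all higher, with a log2 fold change of 0.95 ± 0.27 that was not called (adjusted p = 0.135), and of 0.78 (adjusted p = 0.331) without the library with endothelial transcripts. HOXB2 was at 1.92, 1.64 and 2.08 CPM with empty vector and at 1.13, 2.69 and 0.576 with VGF, a log2 fold change of −0.31 ± 0.35 (adjusted p = 0.799). The endothelial library is the highest of these, and without it HOXB2 was called lower with VGF (log2 fold change −1.17, adjusted p = 0.0325). The part of the endothelial transcripts in the values of HOXA7, HOXA9 and HOXB2 in that library was not tested. For 5 genes the groups did not overlap (HOXA3, HOXA4 and HOXC9 higher, HOXA11 and HOXC13 lower with VGF), compared with 18.4% of all features. The other genes with an unadjusted p under 0.05 were HOXB3 (log2 fold change −0.19 ± 0.09), HOXB7 (0.21 ± 0.09), HOXC10 (0.55 ± 0.22) and HOXB13, with 18, 2 and 0 counts against 0, 0 and 2, and their adjusted p lay between 0.293 and 0.343. Over the 32 genes the median log2 fold change was 0.02. Without the library with endothelial transcripts 33 HOX genes were tested, 6 had an unadjusted p under 0.05 (10.4% of all features), 12 did not overlap (27.0% of all features), and the median was 0.00. The log2 fold changes of HOXB3, HOXB7 and HOXC10 were then −0.17, 0.25 and 0.42, with adjusted p of 0.585, 0.347 and 0.68. HOXA9 went from 1.11 ± 0.99 to −0.53, and neither was called.

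In H1299 no HOX gene was called and none had an unadjusted p under 0.05 by edgeR, against 0.011% and 7.80% of all features, and DESeq2 and limma voom also called 0. The smallest p belonged to HOXD11, with 2, 0 and 5 counts with empty vector and 14, 10 and 3 with VGF (log2 fold change 1.96 ± 0.93, adjusted p = 0.644). HOXD10, which shares 21.4% of the exonic bases of HOXD11, had 8, 5 and 0 counts with empty vector and 0, 0 and 0 with VGF. Reads of HOXD10 and HOXD11 may therefore have been divided differently between libraries, which was not tested. HOXB9 was at 44.0, 45.6 and 44.35 CPM with empty vector and at 41.7, 40.3 and 40.1 with VGF (−0.13 ± 0.08, adjusted p = 0.74). HOXA10 followed with 3.79, 4.38 and 6.35 CPM against 3.82, 3.86 and 3.87 (−0.33 ± 0.20, adjusted p = 0.772). HOXB9, HOXC6 and HOXC8 were lower in all 3 VGF libraries than in any empty-vector library, 3 of 32 genes where 12.7% of all features did not overlap. The most expressed gene, HOXB2, was at 76.9, 76.6 and 80.2 CPM with empty vector and at 77.2, 78.7 and 77.5 with VGF (0.00 ± 0.19). The median log2 fold change of the 32 genes was −0.03.

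The VGF effects of the lines were also set against each other. No HOX gene was called for the difference of the effects (H1299 minus A549) by edgeR, where 0.159% of all features were, and 5 had an unadjusted p under 0.05, where 11.2% of all features did. HOXA11 was nearest (adjusted p = 0.0945), followed by HOXA7 (0.248) and HOXA4 (log2 −1.13 ± 0.37, 0.299). DESeq2 called 1, HOXA7 (adjusted p = 0.00413), where it called 318 of all 18228 features. With limma voom 0 HOX genes and 19 of all features were called. No gene of the cofactor and regulator lists was called in any VGF comparison.

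**Figure D5:**
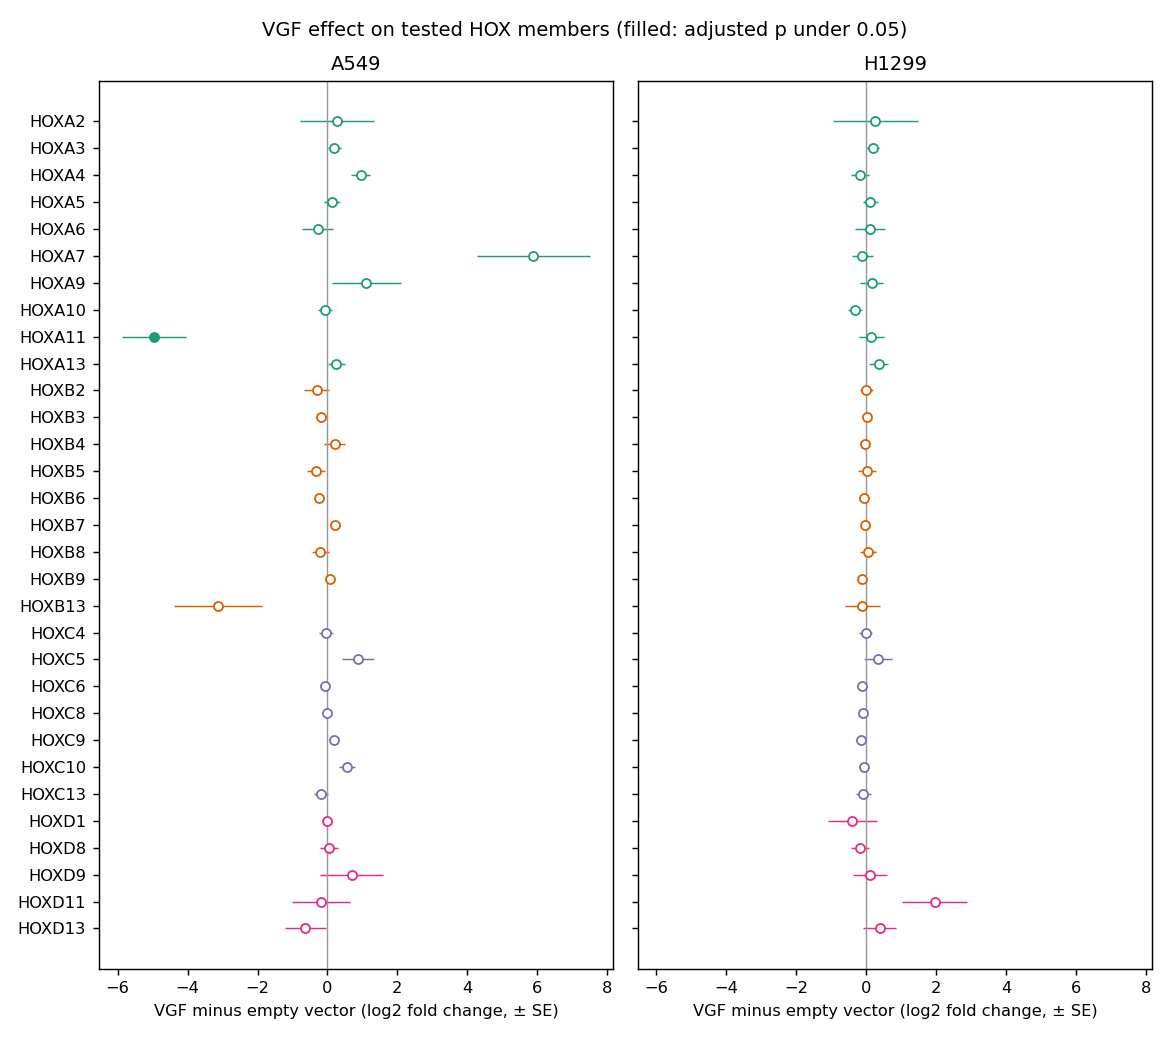
Log2 fold change (VGF minus empty vector, ± SE) of tested HOX genes in A549 (left) and H1299 (right), coloured by cluster and filled where the adjusted p was under 0.05. HOXA11 in A549 is the only filled point, HOXA7, HOXA11 and HOXB13 in A549 rest on 20 or fewer counts in a group, and most points of both lines lie close to 0.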

How the data were processed

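RNA was sequenced from 12 libraries of A549 and H1299 cells. The authors deposited whole-number counts and FPKM for 26535 features, 6561 of them loci without an Ensembl ID; 18 lines that hold no feature were left out. GRCh38 and DESeq2 are named in the submitters' processing notes, and the aligner, counter, strand setting and annotation are not given in the sources used. Deposited FPKM values set levels between genes, although the gene length they imply differed between libraries by up to 1.58-fold (HOXA3). Depth was 31378171 to 41919484 counts a library; the floor is 3 counts over a group, which covers counting error only. Gene positions, exons and overlaps are from GENCODE 29 (GRCh38), in which all 19974 Ensembl IDs were found; upstream sequences are from RefSeq.

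The deposited counts were fitted with edgeR 4.0.16 (R 4.3.3; TMM, filterByExpr by group, 4 group means over 12 libraries, 18228 features tested, quasi-likelihood F test, Benjamini-Hochberg over all features, called at adjusted p under 0.05). CPM are counts over TMM-scaled totals. The contrasts were the VGF effect within A549 and within H1299, the difference between both effects, and H1299 minus A549 for empty-vector and for VGF libraries. Every HOX gene is counted, those of at least 1 CPM in a group with values; of each other list, up to 3 called genes a direction are named by smallest p. The values of a few genes are not reported here; counts and sums include them. In the blood cell list 1 gene was higher and 1 lower of 2 tested in empty-vector H1299, in the endothelial list 2 and 4 of 15, in the lung epithelial list 0 and 6 of 8. The HOX genes and the 13 lists were chosen with earlier results of these data known. Alternatives were DESeq2 1.42.0, limma 3.58.1 with voom or on log2(FPKM + 1) or log2(FPKM + 0.1), upper-quartile scaling, 2 other filters, a replicate block, each line alone, each library left out, and CPM in place of FPKM sums.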

Additional observations from a re-analysis of the deposited data

How the results depend on the processing

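The count of HOX genes called in A549 with VGF was 1; it was 0 with limma voom, 0 on FPKM with either pseudocount, 0 with A549 fitted alone (25 genes tested) and 3 with DESeq2, and 0 to 1 with a library left out. For the difference of the effects DESeq2 called 1 HOX gene in place of 0, and 318 of all 18228 features in place of 29. In H1299 the count was 0 under every alternative run. Without 1 library each, HOX genes higher in H1299 numbered 20 to 21 and lower 6 to 8 with empty vector, and 19 to 20 and 6 to 8 with VGF. Upper-quartile scaling moved the median of all features between the lines by 0.11 with empty vector and 0.12 with VGF on the log2 scale. The log2 ratio of cluster sums (H1299 over A549, empty vector) was 1.57 for HOXA, 1.85 for HOXB and 1.59 for HOXC in FPKM, and 0.97, 1.71 and 1.40 in CPM sums; without 1 library it was 1.53 to 1.60, 1.82 to 1.87 and 1.56 to 1.61, and 1.03 to 1.49 for HOXD.

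Some signs turned. HOXB2 for VGF in A549 was −1.17 to 0.08 with a library left out, and the −1.17 was called by edgeR (adjusted p = 0.0325). HOXA9 for VGF in A549 went from 1.11 to −0.53 without the library with endothelial transcripts, and neither value was called. The other turned signs that were found lay among uncalled values between the lines. In the VGF comparisons, signs were followed over all alternatives only for the genes of smallest p and for HOXB2 in A549. HOXD8 with empty vector was 0.07 and 0.11 on FPKM (pseudocounts 1 and 0.1) and −0.42 to 0.06 with a library left out. With a library left out HOXA6 was −0.35 to 0.07 with empty vector and −0.10 to 0.53 with VGF. HOXD11 with VGF was 0.09 with upper-quartile scaling, 0.01 on FPKM (pseudocount 1) and −0.49 to 0.39 with a library left out. The cause was not tested. Same-numbered libraries did not deviate together (correlations −0.084 to 0.019 over 10322 features), so the numbers were not taken to pair them; with the replicate block 0 HOX genes were called in A549, HOXD11 between the VGF lines was 0.03, and 63 features in place of 144 were called in A549. Over all features limma voom called 334 and DESeq2 736 for VGF in A549, and DESeq2 139 in H1299 against 2; without 1 library the A549 count was 52 to 130. Depth limits HOXA7, HOXA9, HOXA11, HOXB13, HOXD1 and HOXD9 in A549, which rest on 20 or fewer counts a group. It also limits HOXD13, with 31 counts in empty-vector A549 and 20 in A549 with VGF.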
